A study of Mus musculus with 6 samples.

Results

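The Hippo-YAP genes described here are 10 genes chosen by name from the Hippo pathway and its outputs: the effectors Yap1, Wwtr1 and Tead1, the kinases Lats1 and Lats2, the scaffolds Amotl1, Amotl2 and Ajuba, and the secreted matrix proteins Cyr61 and Ctgf. They were matched by symbol, and all 10 were found among the 20756 genes of the table, Cyr61 under its other name Ccn1 and Ctgf under Ccn2 where an annotation uses those. Their RNA was counted by 3' tag sequencing, in which a read is made near the polyadenylated end of a transcript. The material was mouse tumor organoids, cell cultures grown in basement-membrane gel from an intestinal tumor's metastasis in the liver, in the C57BL/6 strain, and the labels give small intestine as the tissue. The 3 sgPrkci libraries came from organoids whose guide RNA targets Prkci, which encodes atypical protein kinase C lambda/iota, and the 3 sgScr libraries from organoids with a scrambled guide, whose genotype the sample labels spell sgScbr. Neither group was treated, and both were harvested 72 h after plating. The sources used here give neither the age of the mice nor the number of clones and the edits in each organoid population.

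In the Hippo pathway, the MST kinases and the LATS kinases act in sequence, and LATS phosphorylates the coactivators YAP (Yap1) and TAZ (Wwtr1), which are then held in the cytoplasm or degraded. When LATS is inactive, YAP and TAZ enter the nucleus, bind the TEAD transcription factors and switch on target genes such as Ctgf, Cyr61, Ankrd1 and Amotl2. In the intestine YAP is known for its part in regeneration after injury, and in epithelia generally the pathway reads cell polarity and junctions, to which atypical protein kinase C belongs. RNA levels do not report the phosphorylation or the location of YAP and TAZ.

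Depth was 2141125 to 2815760 reads in the sgPrkci libraries, against 2821908 to 3048170 reads in the sgScr libraries. Values are given as CPM, the reads of a gene relative to its library total, and 1 read was worth 0.328 to 0.467 CPM. Log2 fold changes are log2(CPM + 1) in sgPrkci less that in sgScr, so that changes of low genes come out smaller than on the CPM scale, and a gene is said to have risen or fallen where limma gave an adjusted p under 0.05 over all genes tested. Of 12195 genes tested, 1387 rose (35.7% of calls) and 2495 fell, but with TMM scaling 1918 rose (51.4% of calls) and 1816 fell. The 2 organoid populations also differed in reads of 4 Y-linked genes, with 336 reads in sgPrkci and 1 read in sgScr, and in the median log2 fold change of whole chromosomes, which was lowest on chromosomes 11 (-0.40), 15 (-0.37) and 8 (-0.28). The guide and other differences between the populations cannot be told apart, and p-values measure only the spread between libraries. Prkci RNA was at 53.9, 56.5 and 46.9 CPM in sgPrkci organoids and 46.6, 54.5 and 63.8 CPM in sgScr organoids (log2 fold change -0.06, adjusted p = 0.77 by limma), and 3' tags check an edit only where they cover it. Of the marker genes of the labelled epithelium, Epcam, Krt8, Krt18, Krt19, Cdh1 and Vil1 were detected in every library, with a summed level of all 8 markers of 3602 to 3991 CPM in sgPrkci organoids and 3297 to 3849 CPM in sgScr organoids. Of the 7 markers tested, 2 rose (Epcam and Vil1), 2 fell (Krt18 and Cdx2) and 3 did not pass. Those that rose and those that fell were 28.6% each, against 11.4% and 20.5% of all genes tested. Vil1 was at 81.1 to 109 CPM in sgPrkci organoids and 53.5 to 59.3 CPM in sgScr organoids. The intestinal factor gene Cdx2 was at 10.3 to 15.1 CPM in sgPrkci organoids and 23.6 to 27.5 CPM in sgScr organoids. Cdx1 had no read in sgPrkci organoids and 1 library of sgScr organoids had it, at 0.335 CPM.

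Of the 9 Hippo-YAP genes that could be tested, 1 rose (Ctgf), 3 fell (Amotl1, Amotl2 and Ajuba) and 5 did not pass. Over all genes tested, 11.4% rose and 20.5% fell, together 31.8%. The groups did not overlap for 5 of the 9 genes, 4 with sgPrkci lower (the 3 that fell and Tead1) and 1 with sgPrkci higher (Ctgf). Of all genes tested, 43% had groups that did not overlap, 27.1% with sgPrkci lower and 15.9% with sgPrkci higher. The median log2 fold change of the 9 was -0.22, and that of all genes tested was -0.11. Cyr61 had too few reads to pass the minimum of 1 CPM in 3 libraries and was not tested. In bulk organoids, fewer cells of a type and less RNA per cell cannot be told apart, which holds for every value here.

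**Figure D1:**
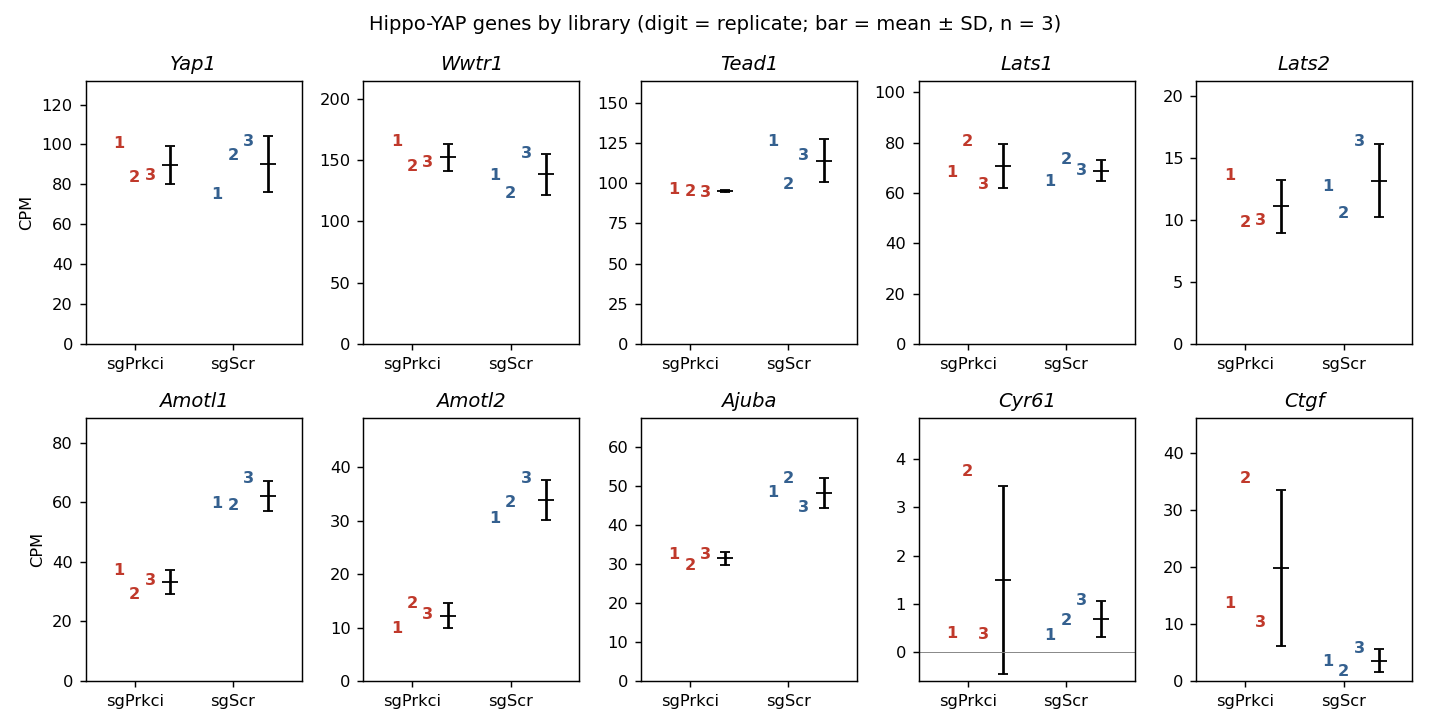
Level of each of the 10 Hippo-YAP genes in CPM (vertical axis, own scale in each panel) in sgPrkci and sgScr organoids, each digit being 1 library and the black mark the mean ± SD of 3 libraries. The 3 sgPrkci libraries lie below the 3 sgScr libraries for Amotl1, Amotl2, Ajuba and Tead1 and above them for Ctgf, and the groups overlap for the other genes.

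Sequences around RefSeq start sites are shown for the scaffolds that fell and for Cyr61. Amotl2 and Cyr61 are textbook TEAD targets, and the TEAD core motif can be read directly in them. Each line holds 250 bases before to 50 bases after a start site in RefSeq (GRCm38.p6), 5' to 3' on the strand of the gene, with capitals marking the TEAD core GGAATG or its reverse complement CATTCC. The windows are chr9:102717554-102717853 on the plus strand for Amotl2, chr14:54577612-54577911 on the minus strand for Ajuba, chr9:14614951-14615250 on the minus strand for Amotl1 and chr3:145649936-145650235 on the minus strand for Cyr61.
Amotl2: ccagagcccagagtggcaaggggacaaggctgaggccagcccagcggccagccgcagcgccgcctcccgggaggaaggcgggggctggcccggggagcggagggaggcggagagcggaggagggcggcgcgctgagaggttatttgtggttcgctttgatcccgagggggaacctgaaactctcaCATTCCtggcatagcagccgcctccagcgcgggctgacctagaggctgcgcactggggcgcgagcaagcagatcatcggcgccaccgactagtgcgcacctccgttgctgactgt
Ajuba: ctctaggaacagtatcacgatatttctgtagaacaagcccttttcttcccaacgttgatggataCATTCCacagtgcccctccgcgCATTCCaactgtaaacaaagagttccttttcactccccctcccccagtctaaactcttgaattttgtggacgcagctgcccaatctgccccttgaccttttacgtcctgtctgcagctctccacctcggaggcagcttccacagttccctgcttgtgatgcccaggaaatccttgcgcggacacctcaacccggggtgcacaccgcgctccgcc
Amotl1: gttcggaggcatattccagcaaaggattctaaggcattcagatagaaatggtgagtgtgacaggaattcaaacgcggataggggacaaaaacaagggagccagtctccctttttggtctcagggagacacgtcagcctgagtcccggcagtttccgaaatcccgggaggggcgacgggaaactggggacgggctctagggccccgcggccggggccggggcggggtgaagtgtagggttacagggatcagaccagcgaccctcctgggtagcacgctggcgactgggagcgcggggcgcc
Cyr61: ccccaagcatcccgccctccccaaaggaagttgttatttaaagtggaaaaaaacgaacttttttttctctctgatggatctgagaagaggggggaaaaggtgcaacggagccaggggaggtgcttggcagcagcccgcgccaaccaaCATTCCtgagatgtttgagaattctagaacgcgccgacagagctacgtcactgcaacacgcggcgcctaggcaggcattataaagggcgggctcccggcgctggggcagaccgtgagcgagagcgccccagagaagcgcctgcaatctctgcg
Counted from the start site to the first base of the match, the core lies at -65 in Amotl2, at -186 and -164 in Ajuba and at -103 in Cyr61, each time as CATTCC, and these letters are not in the Amotl1 window. The table matched 8 of the 10 genes, with 10 windows, and did not hold Tead1 and Ctgf. The core stood in at least 1 window of 6 of the 8 (Yap1, Wwtr1, Lats2, Amotl2, Ajuba and Cyr61) and in none of Lats1 and Amotl1. Of 32851 windows of the same length in the mouse table, 14.7% held it on either strand, and of 27025 genes 16.6% held it in at least 1 window. Genes with the core include some that fell (Amotl2 and Ajuba) and some that did not pass (Yap1, Wwtr1 and Lats2). Amotl1 fell with none in its window. That window lies inside the gene as GENCODE places it (14541966 to 14645056, minus strand), and the outer 5' end was not searched. The same holds for the window of Amotl2 (gene at 102716672 to 102733418, plus strand). It also holds for the windows of Lats2 (gene at 57689662 to 57758388, minus strand). A match is a run of letters, not a measured binding site.

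None of the 3 effector transcripts passed the test. Yap1 (ENSMUSG00000053110, chromosome 9, 7931999 to 8004596, minus strand, GENCODE M21 on GRCm38), which encodes the coactivator YAP, was at 101, 83.6 and 84.5 CPM in sgPrkci organoids and 74.8, 94.5 and 101 CPM in sgScr organoids. The groups overlapped fully, and the highest library of each stood at nearly the same level. Its means were 89.6 ± 9.62 CPM in sgPrkci organoids and 90.2 ± 13.8 CPM in sgScr organoids (SD, n = 3 each), with a 95% interval of the log2 fold change from -0.24 to 0.23 (adjusted p = 0.99 by limma). Wwtr1 (ENSMUSG00000027803, chromosome 3, 57455649 to 57575910, minus strand), which encodes the paralog TAZ, was at 165, 144 and 148 CPM in sgPrkci organoids and 137, 122 and 156 CPM in sgScr organoids. These groups overlapped too, through the highest sgScr library. The log2 fold change of Wwtr1 was 0.14, with a 95% interval from -0.06 to 0.34 (adjusted p = 0.3 by limma). Tead1 (ENSMUSG00000055320, chromosome 7, 112679318 to 112906807, plus strand), a TEAD factor through which YAP and TAZ reach DNA, was at 96.2, 94.8 and 94.5 CPM in sgPrkci organoids and 126, 99.4 and 117 CPM in sgScr organoids. Every sgPrkci library lay below every sgScr library, and sgScr replicate 2 lay closest to them. The log2 fold change was -0.25 with a 95% interval from -0.46 to -0.04, which missed the threshold after adjustment (adjusted p = 0.063 by limma). Without sgScr replicate 2 it was -0.35 and passed (adjusted p = 0.025 by limma), but Tead1 did not pass in the other 17 alternative analyses. With TMM scaling its log2 fold change was -0.15 (adjusted p = 0.29 by limma). With chromosome medians removed it was -0.17 (adjusted p = 0.23 by limma).

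Neither LATS kinase transcript passed the test. Lats1 (ENSMUSG00000040021, chromosome 10, 7681214 to 7716460, plus strand), a kinase that phosphorylates YAP and TAZ, was at 68.3, 80.3 and 63.2 CPM in sgPrkci organoids and 64.7, 73.2 and 68.7 CPM in sgScr organoids. The highest and the lowest library were both sgPrkci libraries, so that the groups overlapped. The 95% interval of the log2 fold change ran from -0.21 to 0.27 around 0.03 (adjusted p = 0.87 by limma). Its paralog Lats2 (ENSMUSG00000021959, chromosome 14, 57689662 to 57758388, minus strand) is itself a YAP target and part of the feedback of the pathway. It was at 13.6, 9.81 and 9.94 CPM in sgPrkci organoids and 12.7, 10.5 and 16.3 CPM in sgScr organoids, and these groups overlapped. Its log2 fold change was -0.22 with a wider 95% interval, from -0.66 to 0.22 (adjusted p = 0.47 by limma).

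All 3 scaffold transcripts fell, and they did so in all 18 alternative analyses. Amotl2 (ENSMUSG00000032531, chromosome 9, 102716672 to 102733418, plus strand) encodes angiomotin-like 2, which binds YAP at junctions and promotes its phosphorylation, and is a YAP target as well. It was at 9.81, 14.5 and 12.4 CPM in sgPrkci organoids and 30.5, 33.5 and 37.9 CPM in sgScr organoids. The lowest sgScr library was well above the highest sgPrkci library. The means were 12.2 ± 2.34 CPM in sgPrkci organoids and 34.0 ± 3.73 CPM in sgScr organoids (SD, n = 3 each), 0.36 of the sgScr level, with a log2 fold change of -1.41 (SE 0.18, adjusted p = 3.4e-07 by limma). Amotl1 (ENSMUSG00000013076, chromosome 9, 14541966 to 14645056, minus strand), a second angiomotin family scaffold, was at 37.0, 29.0 and 33.7 CPM in sgPrkci organoids and 59.7, 59.1 and 68.0 CPM in sgScr organoids. Its groups were likewise apart, at 0.534 of the sgScr mean. The log2 fold change of Amotl1 was -0.89 (SE 0.13, adjusted p = 4.6e-06 by limma). Ajuba (ENSMUSG00000022178, chromosome 14, 54567472 to 54577558, minus strand) encodes a LIM domain protein of cell junctions that binds LATS and limits its activity, the opposite role to that of the angiomotins. It was at 32.4, 29.4 and 32.3 CPM in sgPrkci organoids and 48.3, 51.8 and 44.3 CPM in sgScr organoids. The groups did not overlap, and Ajuba was at 0.652 of the sgScr mean with a log2 fold change of -0.60 (SE 0.13, adjusted p = 0.00088 by limma). With a library left out in turn, the log2 fold changes ranged from -1.53 to -1.27 for Amotl2, from -0.97 to -0.80 for Amotl1 and from -0.66 to -0.55 for Ajuba. Chromosomes 9 and 14, which hold the 3 genes, had median log2 fold changes of -0.01 and -0.08.

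**Figure D2:**
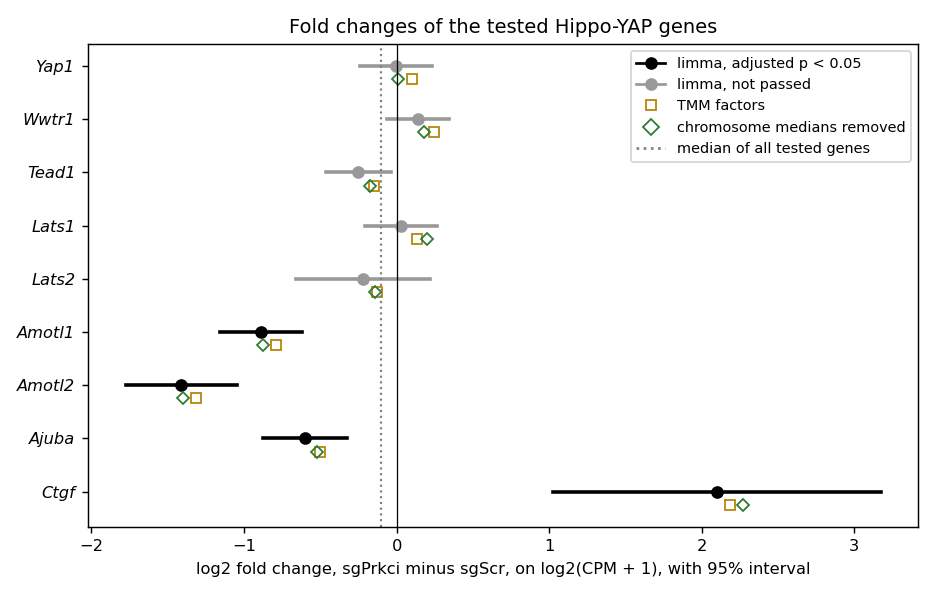
Log2 fold change (sgPrkci minus sgScr, on log2(CPM + 1), horizontal axis) of the 9 tested Hippo-YAP genes, circles with 95% intervals from limma, black where the adjusted p was under 0.05 and grey where not. Open squares give the value with TMM factors and open diamonds that with chromosome medians removed, and the 3 scaffolds stay left of 0 and Ctgf right of 0 under each, with the dotted line at the median of all tested genes (-0.11).

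The secreted targets were the lowest of the 10 in reads, and 1 library carried much of their difference. Ctgf (ENSMUSG00000019997, chromosome 10, 24595442 to 24598683, plus strand) encodes connective tissue growth factor, a matricellular protein and the most used YAP/TAZ target. It was at 13.6, 35.5 and 10.3 CPM in sgPrkci organoids (36, 76 and 29 reads) and 3.35, 1.64 and 5.67 CPM in sgScr organoids (10, 5 and 16 reads). Every sgPrkci library was above every sgScr library, and sgPrkci replicate 2 stood far above its own group. Ctgf rose, with means of 19.8 ± 13.7 CPM in sgPrkci organoids and 3.55 ± 2.02 CPM in sgScr organoids (SD, n = 3 each) and a log2 fold change of 2.10 (SE 0.47, 95% interval from 1.02 to 3.17, adjusted p = 0.0086 by limma). The ratio of the means was 5.57, and without sgPrkci replicate 2 it was 3.36, with a log2 fold change of 1.60 (adjusted p = 0.00032 by limma). Without sgScr replicate 1 the log2 fold change was 2.12 and did not pass (adjusted p = 0.1 by limma). Cyr61 (ENSMUSG00000028195, chromosome 3, 145646976 to 145649981, minus strand), a sister matricellular protein and YAP/TAZ target, was at 0.377, 3.74 and 0.355 CPM in sgPrkci organoids and 0.335, 0.656 and 1.06 CPM in sgScr organoids. Those values are 1, 8 and 1 reads in sgPrkci organoids against 1, 2 and 3 reads in sgScr organoids, and the groups overlapped. By depth the ratio was 1.94 with an exact 95% counting interval from 0.639 to 6.49, so that no difference was detectable at this depth. The ratio of mean CPM was 2.18 with all libraries and 0.535 without sgPrkci replicate 2, so its direction rested on that library.

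The antisense gene Gm15270 overlaps Ctgf and was at 3.77, 2.80 and 3.91 CPM in sgPrkci organoids and 1.34, 0.984 and 1.42 CPM in sgScr organoids. The sources used here give no strand setting for the counting, and without it reads of overlapping genes on opposite strands cannot be told apart. The last 500 bases of Ctgf, where 3' tags fall, hold no exon of another gene, and this was so for all 10 genes. Gm49361, a gene on the same strand as Lats2, spans those last bases of Lats2 without an exon in them. Ctgf is also a product of fibroblasts, and fibroblast markers summed to 0.710 to 2.34 CPM in sgPrkci organoids and 0.328 to 2.35 CPM in sgScr organoids, with 6 of 9 markers in the table. Col1a1, Col1a2 and Col3a1 had no read in sgPrkci organoids, while Pdgfra was at 1.89, 1.87 and 0.710 CPM in sgPrkci organoids (11 reads in all) and 0.335, 0 and 0.709 CPM in sgScr organoids (3 reads). None of the fibroblast markers had enough reads for the test. Endothelial markers summed to 0.355 to 0.467 CPM in sgPrkci organoids and 0 to 1.01 CPM in sgScr organoids, with 5 of 6 in the table and Pecam1 and Cdh5 at 0 throughout. Of the immune markers 2 of 7 were in the table, and they summed to 7.94 to 12.4 CPM in sgPrkci organoids and 5.25 to 7.38 CPM in sgScr organoids, nearly all of it Cd68. Hepatocyte markers summed to 0.467 to 1.13 CPM in sgPrkci organoids and 2.30 to 22.1 CPM in sgScr organoids, with 5 of 6 in the table and Ttr and Cyp3a11 at 0 throughout. The sgScr sum was mostly Apoa1 (16.1, 1.64 and 5.67 CPM) and Apob (6.03, 0.328 and 1.06 CPM), both highest in sgScr replicate 1. Alb had 1 read in sgScr organoids and no read in sgPrkci organoids. Cd68 rose (log2 fold change 0.69, adjusted p = 0.029 by limma) and Apoa1 fell (log2 fold change -2.05, adjusted p = 0.012 by limma). They were the only immune and hepatocyte markers with enough reads for the test. The part of the immune and hepatocyte marker differences in the results was not tested.

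Members of a paralog pair were compared within each library, as the log2 ratio of their CPM + 1, with an exact two-sided permutation test that cannot go below p = 0.1 with 3 libraries against 3. The Amotl2 over Amotl1 ratio was -1.81, -0.95 and -1.37 in sgPrkci organoids and -0.95, -0.80 and -0.83 in sgScr organoids. All 3 sgPrkci values lay below the sgScr values, the second by a narrow margin, with a difference of -0.52 between the group means (exact permutation p = 0.1, adjusted over the 4 pairs 0.2). The Ctgf over Cyr61 ratio averaged 3.14 ± 0.239 in sgPrkci organoids and 1.36 ± 0.592 in sgScr organoids, a difference of 1.78 (exact permutation p = 0.1, adjusted 0.2). It ran from 2.95 to 3.40 over the sgPrkci libraries, although both genes were highest in sgPrkci replicate 2. With so few Cyr61 reads, the added 1 CPM weighs heavily in this ratio. The Wwtr1 over Yap1 ratio differed by 0.14 (exact permutation p = 0.4, adjusted 0.5) and the Lats2 over Lats1 ratio by -0.25 (exact permutation p = 0.5, adjusted 0.5). No pair passed, and none could in this design.

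The other regulators of the pathway did not move in a common direction. Of 51 genes in a list of kinases, adaptors, scaffolds and cofactors, 47 were in the table and 43 were tested, of which 5 rose, 5 fell and 33 did not pass. Of the 43, 11.6% rose and 11.6% fell, together 23.3%. Over all genes tested these shares were 11.4%, 20.5% and 31.8%. The median log2 fold change of the 43 was 0.00, against -0.11 for all genes tested. With TMM scaling 9 rose and 5 fell. Of the others, Dchs1, Dchs2, Vgll2 and Vgll3 were not analysed here, and Fat4, Fjx1, Map4k1 and Vgll1 had too few reads for the test. The largest difference among the tested regulators was that of Wwc2, a member of the KIBRA family, whose proteins activate LATS. Wwc2 was at 40.4, 36.4 and 40.8 CPM in sgPrkci organoids and 108, 104 and 113 CPM in sgScr organoids (log2 fold change -1.44, adjusted p = 3.3e-11 by limma). Wwc1, which encodes KIBRA itself, was at 128, 129 and 123 CPM in sgPrkci organoids and 222, 219 and 228 CPM in sgScr organoids (log2 fold change -0.81, adjusted p = 2.2e-08 by limma). For both the groups were far apart beside the spread within them. Fat1, an atypical cadherin of the Fat family, was at 26.0, 23.4 and 18.1 CPM in sgPrkci organoids and 40.6, 42.6 and 43.6 CPM in sgScr organoids (log2 fold change -0.90, adjusted p = 3.7e-05 by limma). Nf2, which encodes the tumor suppressor merlin, a recruiter of LATS to the membrane, was at 44.9, 55.6 and 36.9 CPM in sgPrkci organoids and 71.7, 64.0 and 63.1 CPM in sgScr organoids (log2 fold change -0.54, adjusted p = 0.0024 by limma). The casein kinase gene Csnk1e, of the kinases that mark YAP for degradation, fell as well (log2 fold change -0.48, adjusted p = 0.00075 by limma).

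Those that rose were spread over the pathway. Rassf6, a partner of the MST kinases, was at 30.6, 26.2 and 29.5 CPM in sgPrkci organoids and 12.7, 19.7 and 15.6 CPM in sgScr organoids (log2 fold change 0.82, adjusted p = 0.00056 by limma). Map4k5, one of the MAP4K kinases that act on LATS beside MST, was at 93.2, 85.9 and 95.5 CPM in sgPrkci organoids and 66.4, 59.4 and 68.7 CPM in sgScr organoids (log2 fold change 0.49, adjusted p = 0.00078 by limma). Mob1b, an activating cofactor of LATS, was at 124, 116 and 122 CPM in sgPrkci organoids and 78.4, 86.3 and 107 CPM in sgScr organoids (log2 fold change 0.42, adjusted p = 0.0034 by limma). In these 3 genes the groups did not overlap. The call of Mob1b ended with plain moderation, that is without variance trend and robust weights (adjusted p = 0.075 by limma). Amot, the founding angiomotin, was at 60.7, 55.1 and 58.2 CPM in sgPrkci organoids and 55.0, 35.4 and 39.7 CPM in sgScr organoids, with groups that only just stood apart. Its log2 fold change of 0.44 (adjusted p = 0.017 by limma) had the opposite sign to those of Amotl1 and Amotl2, a contrast that was not itself tested. The call of Amot ended without sgPrkci replicate 1 or 3 or sgScr replicate 2 or 3 and with plain moderation, with adjusted p between 0.051 and 0.15 by limma. The log2 fold change of Sike1, of the STRIPAK phosphatase complex that acts on MST, was 0.28 (adjusted p = 0.041 by limma) with overlapping groups, and the call ended without sgPrkci replicate 1 or 2 or sgScr replicate 2 and with plain moderation (adjusted p between 0.12 and 0.26 by limma).

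Of the core cassette, the MST kinase genes Stk3 and Stk4 had log2 fold changes of -0.25 (95% interval from -0.50 to -0.01, adjusted p = 0.11 by limma) and 0.04 (from -0.18 to 0.26). The adaptor genes Sav1 and Mob1a had 0.01 (from -0.21 to 0.23) and -0.00 (from -0.27 to 0.27). None of these 4 passed. The further TEAD genes did not pass either. Tead2 was at 9.43, 10.7 and 14.2 CPM in sgPrkci organoids and 8.05, 6.89 and 8.50 CPM in sgScr organoids (log2 fold change 0.49, 95% interval from 0.02 to 0.95, adjusted p = 0.1 by limma). Tead4 was at 19.2, 16.8 and 19.2 CPM in sgPrkci organoids and 13.1, 15.1 and 14.2 CPM in sgScr organoids (log2 fold change 0.36, 95% interval from -0.01 to 0.73, adjusted p = 0.13 by limma). In both the groups did not overlap, with sgPrkci above, the other way round from Tead1. Tead3 had a log2 fold change of 0.08 (95% interval from -0.38 to 0.53) and Vgll4, a TEAD cofactor that competes with YAP, of -0.04 (from -0.26 to 0.18).

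All 5 regulators that fell lie on chromosomes 8, 11 and 15, which had low medians as a whole. These chromosomes held 9 of the 43 tested regulators, and over all genes 16.9% of those tested and 33.5% of those that fell. With the median of each chromosome taken off, Wwc2 (-1.16), Fat1 (-0.62) and Wwc1 (-0.41) still passed, with adjusted p between 2.3e-09 and 0.0025 by limma. Nf2 was then at -0.14 (adjusted p = 0.46) and Csnk1e at -0.12 (adjusted p = 0.44 by limma), and neither passed. The call of Nf2 ended with plain moderation as well (adjusted p = 0.058 by limma). The scaffolds and Ctgf changed little, with Amotl2 at -1.40, Amotl1 at -0.88, Ajuba at -0.52 and Ctgf at 2.27.

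**Figure D3:**
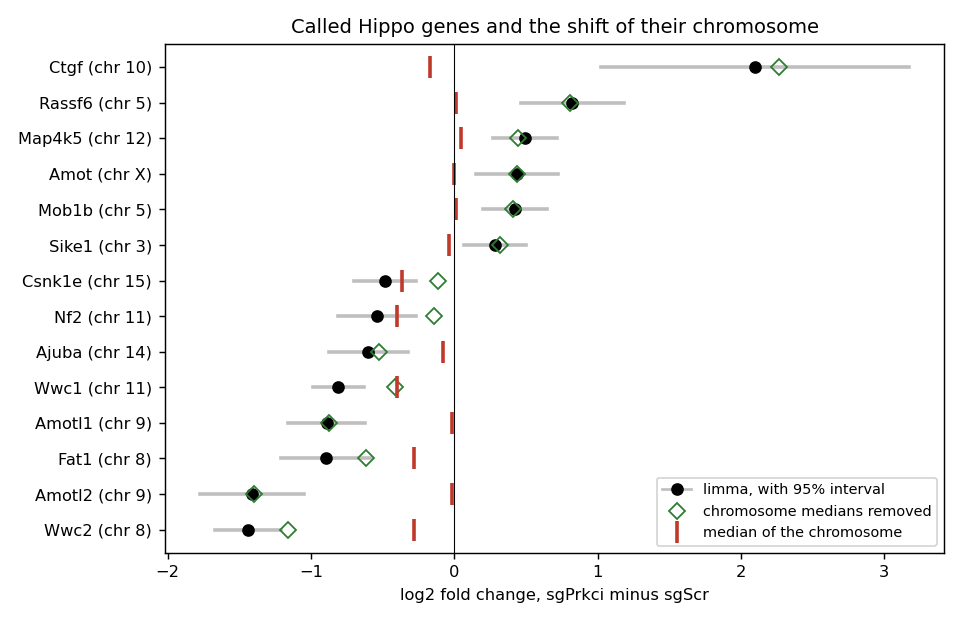
Log2 fold change (sgPrkci minus sgScr, horizontal axis) of the 14 Hippo-YAP genes and other regulators that passed in limma, circles with 95% intervals, beside the median of the chromosome (red tick) and the value with chromosome medians removed (open diamond). Csnk1e and Nf2 move to -0.12 and -0.14, while Amotl2, Amotl1, Ajuba and Ctgf stay near their first values.

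The other YAP/TAZ targets moved in both directions. Of 18 commonly used targets outside the 10 genes (Ptpn14 and Fjx1 also stand in the list of regulators), 17 were in the table and 13 were tested, of which 4 rose (F3, Ankrd1, Foxf2 and Igfbp3), 2 fell (Crim1 and Arhgef17) and 7 did not pass. Those that rose were 30.8% and those that fell 15.4% of the 13, against 11.4% and 20.5% of all genes tested. The first share includes Foxf2, which passed the filter through sgPrkci libraries alone. The median log2 fold change of the 13 was -0.14, near that of all genes tested (-0.11). Foxf2, the highest of the 13, cannot move this median while it stays above it. F3, which encodes tissue factor, the starter of blood clotting, was at 196, 309 and 122 CPM in sgPrkci organoids and 31.2, 39.4 and 31.9 CPM in sgScr organoids. As for Ctgf, sgPrkci replicate 2 was the highest library, and all sgPrkci libraries stood clear of the sgScr libraries. The log2 fold change of F3 was 2.48 (adjusted p = 0.0074 by limma), and the ratio of means was 6.11, or 4.65 without sgPrkci replicate 2. Ankrd1, a nuclear ankyrin repeat protein, was at 40.0, 31.3 and 36.6 CPM in sgPrkci organoids and 26.1, 21 and 23.4 CPM in sgScr organoids (log2 fold change 0.59, adjusted p = 0.0036 by limma). Here sgPrkci replicate 2 was the lowest of its group. Foxf2, a forkhead transcription factor, was at 11.3, 7.01 and 8.88 CPM in sgPrkci organoids and had no read in any sgScr library, 70 reads against 0. An exact 95% counting interval of the ratio had a lower limit of 21.5, and the ratio by depth to a floor of 3 reads over the sgScr group was 27.2. Foxf2 passed the filter only through the 3 sgPrkci libraries, so its call (adjusted p = 3.1e-09 by limma) is no separate support. Igfbp3, a binding protein of insulin-like growth factors, was at 23.8, 35 and 19.9 CPM in sgPrkci organoids and 15.1, 15.4 and 19.8 CPM in sgScr organoids, groups that all but touched. Its log2 fold change was 0.59 (adjusted p = 0.019 by limma), and the call ended without sgPrkci replicate 2 (0.37, adjusted p = 0.19), without sgScr replicate 2 (0.53, adjusted p = 0.081) and with plain moderation (adjusted p = 0.1 by limma). With chromosome medians removed its log2 fold change was 0.98 (adjusted p = 0.00017 by limma).

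The promoter windows of F3 and Ankrd1 are shown because they carry different motifs. In Ankrd1 capitals mark the TEAD core GGAATG, and in F3 they mark the AP-1 motif TGANTCA. AP-1 is a factor often found beside TEAD at enhancers, and 7.81% of the 32851 windows held its motif. The windows are chr19:36119795-36120094 on the minus strand for Ankrd1 and chr3:121723287-121723586 on the plus strand for F3 (RefSeq, GRCm38.p6, 5' to 3' on the strand of the gene).
Ankrd1: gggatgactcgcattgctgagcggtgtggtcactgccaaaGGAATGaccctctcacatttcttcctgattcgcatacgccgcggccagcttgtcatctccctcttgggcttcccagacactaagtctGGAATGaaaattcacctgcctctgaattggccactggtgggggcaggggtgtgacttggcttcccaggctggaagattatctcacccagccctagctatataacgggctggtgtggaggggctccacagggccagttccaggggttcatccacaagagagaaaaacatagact
F3: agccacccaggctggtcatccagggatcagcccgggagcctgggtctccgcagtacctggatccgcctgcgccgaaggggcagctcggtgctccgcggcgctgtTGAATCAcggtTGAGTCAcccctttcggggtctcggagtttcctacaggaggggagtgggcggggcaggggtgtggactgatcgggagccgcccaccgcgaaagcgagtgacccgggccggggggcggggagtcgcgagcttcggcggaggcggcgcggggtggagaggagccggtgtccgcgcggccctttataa
The TEAD core lies at -210 and -123 from the start site in Ankrd1, and the AP-1 motif at -146 and -135 in F3, whose window holds no TEAD core. Of 12 targets of this list with a window, 4 held the TEAD core: Ankrd1, which rose, Crim1, which fell, Ptpn14, which did not pass, and Axl, which was not tested. Axl was at or below 1.34 CPM in every library. The windows of Foxf2 and Igfbp3 held neither motif.

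Of the targets that fell, Crim1, a transmembrane binder of bone morphogenetic proteins, was at 69.0, 51.4 and 52.2 CPM in sgPrkci organoids and 78.1, 81.0 and 82.6 CPM in sgScr organoids (log2 fold change -0.49, adjusted p = 0.0021 by limma). The groups did not overlap, and the call ended with DESeq2 (adjusted p = 0.055). Arhgef17 was at 22.6, 19.6 and 24.1 CPM in sgPrkci organoids and 34.9, 27.2 and 33.3 CPM in sgScr organoids (log2 fold change -0.50, adjusted p = 0.015 by limma). Its groups did not overlap either. Its call ended with TMM, median-of-ratios and quantile scaling, with edgeR and DESeq2, and without sgPrkci replicate 2, sgScr replicate 1 or sgScr replicate 3, with adjusted p between 0.052 and 0.19. Myof, Asap1, Gadd45a, Dock5, Ptpn14, Nuak2 and Tgfb2 did not pass. Myof, a membrane repair protein, was at 598, 585 and 593 CPM in sgPrkci organoids and 552, 507 and 569 CPM in sgScr organoids, with a 95% interval of the log2 fold change from -0.02 to 0.28. Tgfb2, a growth factor gene, had 2 reads in sgPrkci organoids and 11 in sgScr organoids, a ratio by depth of 0.212 with an exact 95% counting interval from 0.0228 to 0.969.

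**Figure D4:**
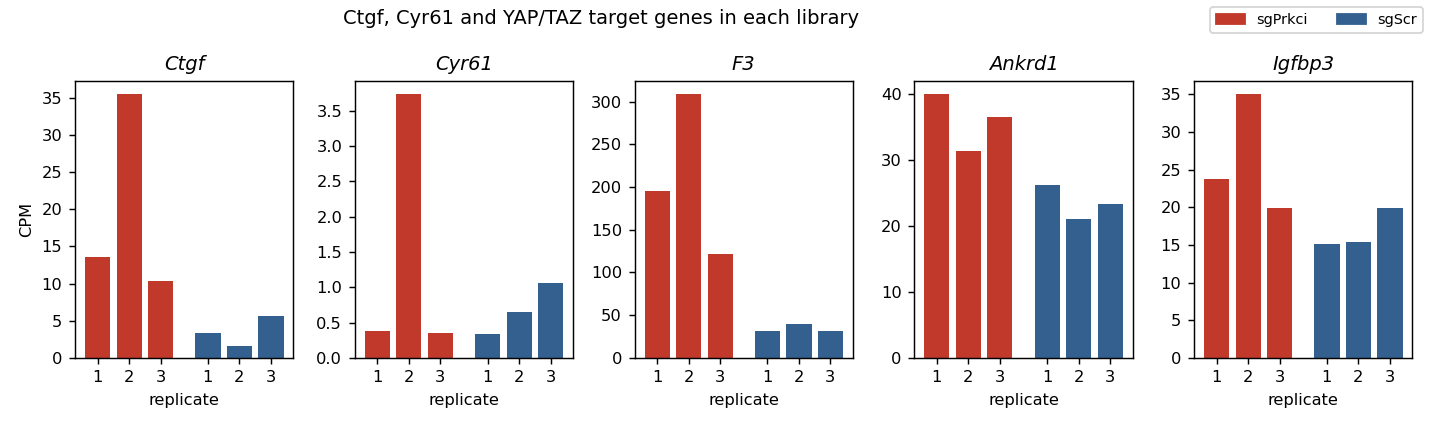
CPM (vertical axis, own scale in each panel) of Ctgf, Cyr61, F3, Ankrd1 and Igfbp3 in each of the 3 sgPrkci libraries (red, left) and 3 sgScr libraries (blue, right). In sgPrkci replicate 2 Ctgf (35.5), Cyr61 (3.74), F3 (309) and Igfbp3 (35) were at their highest, and Ankrd1 (31.3) was at the lowest of the sgPrkci libraries.

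A wider YAP signature, which holds many cell cycle genes, moved in both directions. Of 50 genes 44 were in the table and 38 were tested, of which 6 rose and 14 fell, while 18 did not pass. Those that rose were 15.8% and those that fell 36.8% of the 38, against 11.4% and 20.5% of all genes tested. The share that fell includes Mdfic, which passed the filter through sgScr libraries alone. Over all genes, too, most calls on this scale were lower (2495 of 3882), and with TMM scaling 8 of the list rose and 11 fell. The list's median log2 fold change was -0.25. The lowest p was that of Top2a, which encodes the topoisomerase of dividing cells, with a log2 fold change of -0.86 (adjusted p = 5.1e-11 by limma). Hmmr, a spindle protein, had -0.66 and Birc5, which encodes survivin, had -0.67 (adjusted p = 2.8e-06 and 6.1e-06 by limma). Mdfic, a regulator of transcription factors, had 1 read in sgPrkci organoids and 46 in sgScr organoids, a ratio by depth of 0.0253 (exact 95% counting interval from 0.000627 to 0.148). Because of the way Mdfic passed the filter, its call is no separate support. Those that rose included the stress gene Ndrg1, at 887, 813 and 857 CPM in sgPrkci organoids and 530, 547 and 542 CPM in sgScr organoids (log2 fold change 0.66, adjusted p = 2.3e-08 by limma). The membrane protein gene Emp2 had a log2 fold change of 0.46, Agfg2 of 0.53 and the phosphatase gene Dusp1, which turns off MAP kinases, of 0.63 (adjusted p = 8.6e-05, 0.00028 and 0.00061 by limma). Top2a, Hmmr and Birc5 lie on chromosome 11, whose median was -0.40, and with chromosome medians removed they still passed, at -0.47, -0.27 and -0.27 (adjusted p = 4.7e-06, 0.032 and 0.042 by limma). Ndrg1, on chromosome 15, was then at 1.02.

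Target genes of SRF, the actin-linked factor that also drives Ctgf and Cyr61, moved in both directions. Of 18 genes 17 were in the table and 14 were tested, of which 2 rose and 2 fell, while 10 did not pass. Those called were 28.6% of the tested genes of the list, near the 31.8% of all genes. They include Flnc, which passed the filter through sgScr libraries alone. The list's median log2 fold change was -0.07. Fhl2, a LIM domain cofactor, was at 78.5, 87.3 and 88.4 CPM in sgPrkci organoids and 60.3, 66.9 and 63.1 CPM in sgScr organoids (log2 fold change 0.41, adjusted p = 0.0044 by limma), and with chromosome medians removed it was 0.23 and did not pass (adjusted p = 0.14 by limma). Tpm4, a tropomyosin gene, rose as well (log2 fold change 0.24, adjusted p = 0.02 by limma), and its call ended without sgPrkci replicate 1 or 3 or sgScr replicate 2 and with plain moderation (adjusted p between 0.067 and 0.16 by limma). With chromosome medians removed Tpm4 was at 0.52 (adjusted p = 7.0e-06 by limma). The log2 fold change of Myh9, which encodes nonmuscle myosin heavy chain, was -0.41 (adjusted p = 0.00042 by limma), and it was -0.04 (adjusted p = 0.76) with chromosome medians removed. Flnc, a filamin gene, had 3 reads in sgPrkci organoids and 22 in sgScr organoids, a ratio by depth of 0.159 (exact 95% counting interval from 0.0304 to 0.528), and its call ended with DESeq2 (adjusted p = 0.088). Since Flnc passed the filter only through the sgScr libraries, its call is no separate support. Srf itself was at 21.1, 22 and 17.4 CPM in sgPrkci organoids and 14.4, 13.5 and 15.2 CPM in sgScr organoids, groups that did not overlap, and it did not pass (log2 fold change 0.46, 95% interval from 0.09 to 0.83, adjusted p = 0.053 by limma).

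**Figure D5:**
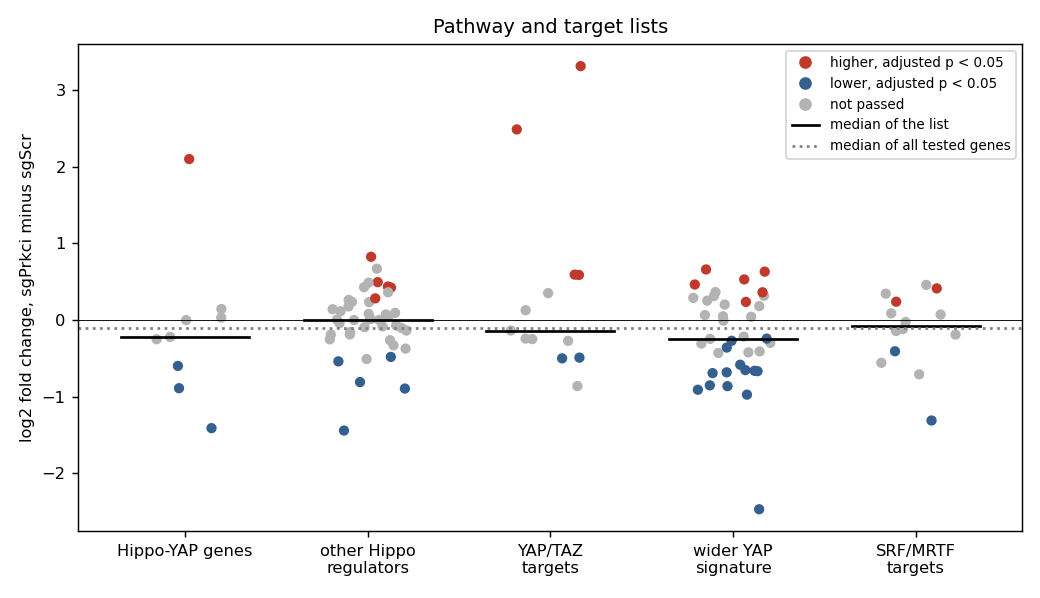
Log2 fold change (sgPrkci minus sgScr, on log2(CPM + 1), vertical axis) of each tested gene of the 10 Hippo-YAP genes and of 4 further lists, red where it rose, blue where it fell and grey where it did not pass in limma. Horizontal bars give the list medians (-0.22, 0.00, -0.14, -0.25 and -0.07 from left to right) beside the median of all tested genes (dotted, -0.11).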

How the data were processed

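The measurements are 3' tag reads of polyadenylated RNA in 6 libraries, 3 sgPrkci and 3 sgScr, prepared with Lexogen's QuantSeq forward kit (200 ng total RNA input), for which molecular identifiers were an option, per the labels' protocols. Per the submitters' processing notes, the reference was GRCm38. The sources used here name no aligner, counting program, strand setting, use of identifiers or annotation.

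The table deposited by the authors lists 20756 Ensembl genes with 6 columns of CPM. All 124536 values (100%) were whole multiples of what 1 read is worth in their column, within 1e-06 of a read, so the read counts behind the deposited CPM were recovered for edgeR and DESeq2, and 0 columns were unmapped. Groups came from the genotype labels, where the control is spelled sgScbr (description WT) and was taken as the sgScr of the series text. Replicate numbers are names in accession order. In the series text they are biological replicates, but nothing ties them to separate animals. No 2 libraries agreed within sampling noise (chi-square per degree of freedom at least 1.63). Depth, 2141125 to 3048170 reads, puts a floor of 3 reads at 0.984 to 1.40 CPM per library, and the ratio for Foxf2 used 3 reads over the 3 sgScr libraries. Intervals and floors from reads cover counting error only.

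Names and positions came from GENCODE M21 (81 genes had no entry), and promoter windows from RefSeq. The 12195 genes that reached 1 CPM or more in 3 or more of the 6 samples were tested with limma 3.58.1 (R 4.3.3) on log2(CPM + 1), with variance trend and robust moderation, two-sided, with Benjamini-Hochberg adjustment over all of them. The procedure was also run on simulated reads with some genes changed by known folds, up or down at even odds. Those reads held no shift of whole chromosomes, so the run could not test how such shifts or the choice of scaling affect the calls. Chromosome medians used genes with a mean CPM of 10 or more on chromosomes with at least 50 such genes. Alternatives tried were a pseudocount of 0.25 or 5 CPM, a filter at 5 CPM or none, scaling by quantiles, median-of-ratios or TMM factors, totals without Gm42418 and mitochondrial genes, chromosome medians removed, plain moderation, edgeR 4.0.16, DESeq2 1.42.0 and each library left out.

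The 10 genes and all lists were chosen with earlier results of these data known. Named were the 10 genes, Prkci, up to 4 called genes per list and direction with the lowest p, and for Yap1, Cyr61 and Ctgf the 3 genes with a mean CPM of 10 or more and the most similar profile. Others, such as Nf2, Sike1, Stk3, Stk4, Sav1, Mob1a, Srf, Myof, Tgfb2, Vgll4 and the TEAD genes, were named after their values were seen.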

Additional observations from a re-analysis of the deposited data

How the results depend on the processing

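Amotl1, Amotl2 and Ajuba fell under all 18 alternatives, and Ctgf rose under all except without sgScr replicate 1. Without a library, 0 to 1 of the 10 genes rose and 3 to 4 fell. The 0, in limma without sgScr replicate 1, had 1 gene higher at an unadjusted p under 0.05, and edgeR and DESeq2 each called 1 with all libraries. Over all genes, 1038 to 1376 rose and 1706 to 2385 fell without a library, and 1624 fell with chromosome medians removed and 1118 with DESeq2, against 2495. Of the Hippo regulators, against 5, 9 rose with TMM and with median-of-ratios factors, 10 with quantile scaling, 8 with chromosome medians removed, 3 with plain moderation, 11 with edgeR and 3 to 6 without a library. Against 5 that fell, 3 fell with chromosome medians removed and 5 with any 1 library left out. Of the YAP/TAZ targets, 2 to 5 rose (against 4) and 1 to 2 fell (against 2) without a library. With TMM, median-of-ratios, quantile scaling or edgeR 1 fell, and with DESeq2 0, where 1 was lower at an unadjusted p under 0.05. With TMM, median-of-ratios or edgeR 6 rose. Of the wider signature, 9 fell with DESeq2 and 9 to 15 without a library, against 14, and 5 to 6 rose, against 6. Of the SRF targets, 1 fell with a filter at 5 CPM, with chromosome medians removed or with DESeq2 and 1 to 3 without a library, against 2, and 4 rose with quantile scaling and 1 to 2 without a library, against 2. The causes were not tested.

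Signs turned for 3 genes that did not pass in any of those settings. Yap1 was at 0.099 with TMM and with median-of-ratios factors, 0.014 with quantile scaling, 0.015 with totals without Gm42418 and mitochondrial genes, 0.011 with chromosome medians removed, 0.098 with edgeR and 0.097 with DESeq2. Without a library it was 0.044 (sgPrkci replicate 2), 0.036 (sgPrkci replicate 3), 0.036 (sgScr replicate 2) and 0.086 (sgScr replicate 3), in a range from -0.13 to 0.086. Lats1 was at -0.065 without sgPrkci replicate 2 and -0.013 without sgScr replicate 1, in a range from -0.065 to 0.11. Prkci was at 0.042 with TMM, 0.043 with median-of-ratios, 0.0058 with quantile scaling, 0.032 with edgeR, 0.034 with DESeq2, 0.018 without sgPrkci replicate 3 and 0.052 without sgScr replicate 3, in a range from -0.17 to 0.052 without a library. No paired analysis was possible because the labels give no replicate numbers that the groups share. Cyr61 was tested only with no filter (log2 fold change 0.32, adjusted p = 0.61 by limma), and Foxf2 failed the filter without an sgPrkci library, since its reads lie in those 3 alone. Depth limits Cyr61 most, with 16 reads in all.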

Other observations

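The genes whose profile over the 6 samples was most like that of a Hippo-YAP gene were looked up among 7988 tested genes with a mean CPM of 10 or more, by the root mean square difference of centred log2(CPM + 1), as a description. For Ctgf they were Nrn1, which encodes neuritin (0.373), the postsynaptic scaffold gene Dlgap1 (0.534) and F3 (0.550). Nrn1 was at 168, 258 and 159 CPM in sgPrkci organoids and 46.3, 33.8 and 50.3 CPM in sgScr organoids, highest in sgPrkci replicate 2 as Ctgf was. Dlgap1 was at 53.6, 65.9 and 59.7 CPM in sgPrkci organoids and 11.7, 10.2 and 13.8 CPM in sgScr organoids.

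For Cyr61, which rests on 16 reads, the nearest genes were the noncoding RNA host gene Snhg6 (0.138), Gramd4 (0.168) and Hacd2 (0.270). Snhg6 was at 20.4, 71.9 and 18.1 CPM in sgPrkci organoids and 14.8, 23.3 and 26.2 CPM in sgScr organoids, and Gramd4 at 14.0, 36.9 and 10.3 CPM in sgPrkci organoids and 11.7, 12.1 and 15.6 CPM in sgScr organoids. In both, sgPrkci replicate 2 stood above the other 5 libraries, which overlapped. That library was the shallowest, with 2141125 reads, and the part of this in the levels was not tested. For Yap1 the nearest were the condensin subunit gene Ncaph (0.043), the ribosomal protein gene Rpl35a (0.045) and Pdcd6 (0.045), with log2 fold changes between -0.04 and -0.02.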
